A study of Mus musculus with 2 samples.

Results

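Alb, Afp, Afm and Gc are the members of the albumin gene family taken here. They lie on mouse chromosome 5, and CTCF binding was described at these 4 genes of 21853 protein-coding genes. The members were taken by their GENCODE M21 annotation (mm10), and the peaks were those with a summit over the Alb to Afm span or over Gc, each with 200 kb beside. This gave 28 peaks of the 74283 on the autosomes, X and Y in the authors' optimal list. The data are CTCF ChIP-seq of stomach from newborn mice of strain B6NCrl (age 0 days), in 1 group of 2 samples called biological replicates 1 and 2. Per the labels both came from the same donor and tissue sample, and how far they differ may reflect technical error alone. Sex was not collected, control libraries were not analysed here, and with 1 group there was no contrast between conditions. All values are therefore descriptions without a test.

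The family arose by duplication and encodes carrier proteins of blood plasma that are made mainly in liver and, before birth, also in the yolk sac. Albumin carries fatty acids and keeps the osmotic pressure of plasma, alpha-fetoprotein (Afp) is its fetal counterpart and is shut down in liver after birth, afamin (Afm) carries vitamin E and Wnt proteins, and Gc is the vitamin D binding protein. CTCF is a zinc finger protein that stops the extrusion of chromatin loops by cohesin, and the strand of its motif sets from which side it does so. No expression was measured, so whether any of the 4 genes was transcribed in this stomach tissue was not tested.

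The sequence under the summit of the one optimal peak within the Alb to Afm span is shown first, because it is the only such site in the 3 neighbouring genes. It covers chr5:90500838-90501038 (mm10, plus strand), and the capitals mark the CTCF motif, which lies on the minus strand and so appears here as its reverse complement.
Afp intron peak: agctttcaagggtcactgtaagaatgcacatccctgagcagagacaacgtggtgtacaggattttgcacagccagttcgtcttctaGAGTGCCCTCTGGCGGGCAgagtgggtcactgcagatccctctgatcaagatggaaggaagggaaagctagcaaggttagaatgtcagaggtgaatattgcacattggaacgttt
The motifs of the peaks that flank the genes and of those inside Gc follow, each read along its own motif strand with 15 bases beside and with the motif of 19 bases in capitals.
Lower flank of Alb (chr5:90433603-90433651, minus strand): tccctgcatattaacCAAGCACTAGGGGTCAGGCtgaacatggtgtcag
Upper flank of Afm (chr5:90589110-90589158, minus strand): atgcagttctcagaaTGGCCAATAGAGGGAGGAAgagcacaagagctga
Gc intron 1 (chr5:89455700-89455748, plus strand): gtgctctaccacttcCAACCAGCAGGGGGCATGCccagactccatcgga
Gc intron 3 (chr5:89444499-89444547, plus strand): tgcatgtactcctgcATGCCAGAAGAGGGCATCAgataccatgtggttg
Flank beyond the end of Gc (chr5:89411689-89411737, plus strand): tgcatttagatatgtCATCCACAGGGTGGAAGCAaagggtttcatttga
Flank before the start of Gc (chr5:89500369-89500417, minus strand): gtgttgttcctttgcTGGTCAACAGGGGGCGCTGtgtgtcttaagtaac

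Alb, Afp and Afm lie in a row on the plus strand. Alb (ENSMUSG00000029368.10, 15 exons) covers 90460897 to 90476602, Afp (ENSMUSG00000054932.6, 15 exons) 90490737 to 90508907, and Afm (ENSMUSG00000029369.17, 15 exons) 90518932 to 90553543. Across this span of 92647 bp there was 1 optimal peak, inside Afp, which comes to 10.8 peaks per Mb, against 35.2 per Mb on chromosome 5 and 28.1 per Mb over all chromosomes. The bodies of Alb and Afm held no optimal or conservative peak. The 14134 bp between Alb and Afp held no peak in any of the 5 lists, the relaxed ones included. Relaxed lists are the authors' long lists of candidate peaks before IDR, the step that retains those of matching rank across replicates, and each held 300000 peaks.

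The Afp peak lay in intron 7 of 14 at 90500788 to 90501068, with its summit at 90500938. Its signal, the height measure that the authors' caller wrote for each peak, was 407 in the optimal list, and its motif score of 19.4 was the second highest of the 28 peaks. That signal ranked 5112 of 74283, and 6.88% of optimal peaks were as strong or stronger. The replicate 1 list gave it 231 and the replicate 2 list 177, within the top 1.63% of the replicate 1 list and the top 1.87% of the replicate 2 list. The motif centre lay 5 bp below the summit. The summit was 10199 bp from the nearer coding start of Afp and 7969 bp from the end of the gene, and it also fell in an intron of Gm43449, an antisense transcript that overlaps Afp. A short retained-intron transcript of Afp starts 593 bp from the summit.

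The nearest optimal summit below Alb was 27276 bp from its start, at 90433621. It was a weak peak, with a signal of 34.7 in the optimal list, 21.4 in the replicate 1 list and 12.1 in the replicate 2 list, and 75.2% of optimal peaks were as strong or stronger. The nearest summit beyond Afm was 35589 bp from its end, at 90589132, and was the strongest of both windows. Its signal was 496 in the optimal list, 276 in replicate 1 and 225 in replicate 2, and 1.04% of optimal peaks were as strong or stronger. It lay in an intron of 5830473C10Rik and 55 bp from a start of the noncoding transcript Gm42109, which runs back towards Afm. The motifs of both flanking peaks and of the Afp peak were on the minus strand.

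From flank to flank the distance was 155511 bp, with the Afp peak as the only optimal summit inside. The stretch that holds Alb, up to the Afp peak, was 67317 bp without an optimal summit, against a median of 12320 bp between neighbouring optimal summits genome-wide and 10686 bp on chromosome 5. Of 74263 such gaps, 8231 (11.1%) were as long, and they held 59.7% of all bases between summits. The stretch that holds Afm was 88194 bp, and 7.77% of gaps were as long, with 52.4% of the bases. Gaps of this length were thus a small share of all gaps and yet held most of the bases between summits. The longest stretch touching this window lay beyond the genes, 124112 bp from 90661617 to 90785729.

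**Figure D1:**
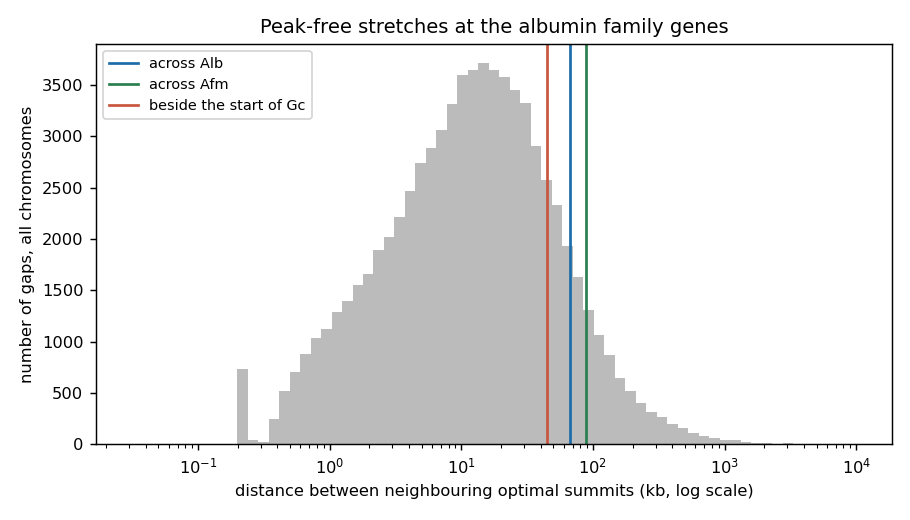
Lengths of all 74263 gaps between neighbouring optimal summits (kb, log scale, grey bars are numbers of gaps), with lines for the longest stretch at Alb (67317 bp), Afm (88194 bp) and Gc (44674 bp). All 3 lines lie above the median gap of 12320 bp, in the right-hand part of the distribution but short of its end.

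Gc (ENSMUSG00000035540.12, 13 exons) lies on the minus strand at 89417522 to 89457898, 1002998 bp below Alb, with 30 optimal peaks between the genes. Its body of 40377 bp held 2 optimal peaks, both in the conservative list too. The stronger, at 89455612 to 89455845 in intron 1, was 2174 bp from the start of Gc, with a signal of 212 in the optimal list, 134 in replicate 1 and 78.6 in replicate 2. The other, at 89444430 to 89444623 in intron 3, was 13376 bp from that start and 8894 bp from a second coding start, with a signal of 135 in the optimal list, 80.7 in replicate 1 and 53.1 in replicate 2. Both had the motif on the plus strand, at 16.6 and 16.9, with its centre within 1 bp of the summit.

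The flanking summits of Gc were 5806 bp beyond the end of the gene and 42500 bp before its start. The signal beyond the end was 86.8 in the optimal list, 51.3 in replicate 1 and 33.2 in replicate 2. The signal before the start was 99.3 in the optimal list, 62.9 in replicate 1 and 35.0 in replicate 2. Both were above the genome median of 76.6 and well under the peak beyond Afm. The flanks were 88682 bp apart and were parted by the 2 intronic peaks into stretches of 32806, 11202 and 44674 bp. Of all gaps, 17.8% were as long as the longest of these.

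**Figure D2:**
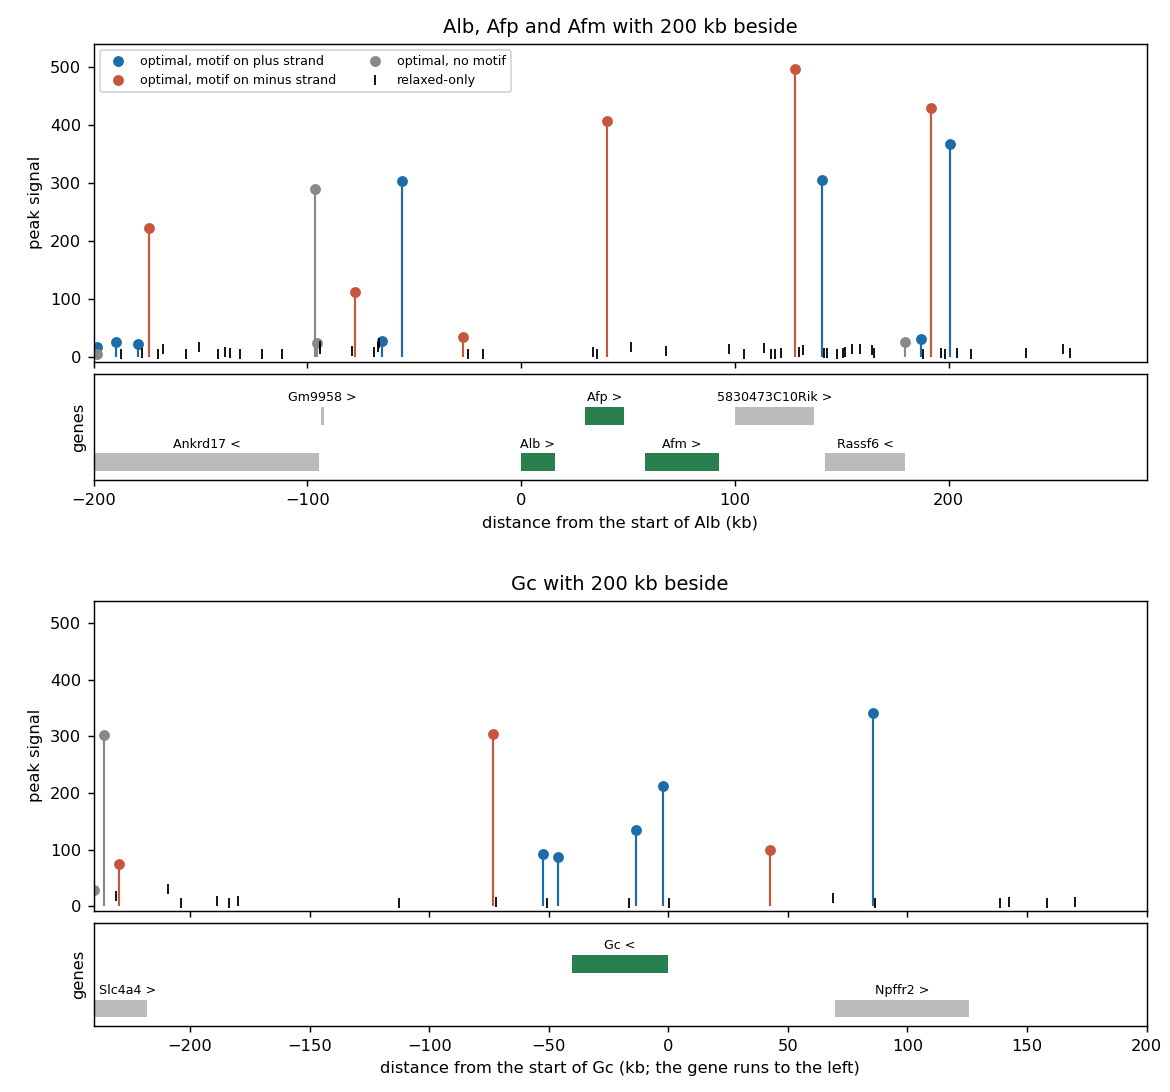
Peaks of the optimal list (dots on stems, height is signal) and relaxed-only peaks (black ticks) by distance from the start of Alb (upper, kb) and of Gc (lower, kb), with protein-coding genes beneath and arrowheads for their strand. In the upper map 1 tall stem, of signal 407, stands over the 3 green genes, and in the lower map 2 stems, of signal 212 and 135, stand over Gc.

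With 200 kb beside, the Alb to Afm window (90260897 to 90753543) held 18 optimal peaks or 36.5 per Mb, and the Gc window (89217522 to 89657898) held 10 or 22.7 per Mb. The low density over the 3 genes rests on 1 peak in 92647 bp and was not shared by the whole window. Median signals were 73.1 and 117 in the Alb to Afm and Gc windows, against 76.6 over all chromosomes, and 17 of the 28 peaks were at or above that genome median. Of the 18 peaks, 9 were above and 9 below, and 5 of the weaker 9 lay over Ankrd17, an ankyrin repeat protein gene below Alb that held 7 peaks in its body. The weakest, with a signal of 5.90, had no summit within 100 bp in either replicate list. Another over Ankrd17 had 25.8 in the optimal list and 18.8 in replicate 1, with no summit within 100 bp in replicate 2.

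Strong peaks stood on both sides of the 3 genes. Below Alb, a peak between genes at 90405278 to 90405525 had a signal of 303 in the optimal list, 170 in replicate 1 and 134 in replicate 2. Above Afm, a peak between 5830473C10Rik and Rassf6, a gene of a Ras association domain protein, had 305 in the optimal list, 177 in replicate 1 and 130 in replicate 2. Past Rassf6, a peak at 90652755 to 90653043 had 430 in the optimal list, 235 in replicate 1 and 198 in replicate 2, and its motif score of 20.7 was the highest of the 28. Its motif is shown for that reason, and it is read like the ones above.
Peak past Rassf6 (chr5:90652884-90652932, minus strand): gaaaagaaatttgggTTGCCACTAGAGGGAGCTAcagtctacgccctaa
With the Afp peak and the one beyond Afm, this was among the 3 strongest of the window.

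In the Gc window the 3 strongest peaks lay outside Gc. A peak in an intron of Npffr2, the gene of a neuropeptide FF receptor, had 341 in the optimal list, 209 in replicate 1 and 136 in replicate 2. A peak between Slc4a4 and Gc, at 89384338 to 89384595, had 304 in the optimal list, 174 in replicate 1 and 133 in replicate 2. A peak in an intron of Slc4a4, the gene of a sodium bicarbonate cotransporter, had 302 in the optimal list, 173 in replicate 1 and 128 in replicate 2, and no CTCF motif. The longest stretch in this window, 156328 bp, lay between an intron of Slc4a4 and the peak at 89384338, and 3.59% of gaps were as long.

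Of the 28 peaks, 20 (71.4%, exact Clopper-Pearson 95% interval 51.3 to 86.8, counting error only) had a summit within 100 bp in the strongest 74283 peaks of each replicate, against 83.2% of all optimal peaks. These were 11 of 18 in the Alb to Afm window and 9 of 10 in the Gc window. The other 8 peaks had signals of 5.90 to 28.5 in the optimal list, and weak peaks miss a limit on rank more easily by its construction. Of the 28, 22 were also in the conservative list, against 88.5% of all optimal peaks. All 3 peaks inside Afp and Gc and all 4 flanking summits met both conditions. The ratio of replicate 1 to replicate 2 signal had a median of 1.35 over the locus peaks and ran from 0.422 to 2.47. Genome-wide its median was 1.33, with 90% of values between 0.922 and 2.19. The sets differ, as the locus ratios took partners from anywhere in the replicate lists (26 peaks). The genome-wide ratios took them only from the strongest 74283 of each replicate (61810 peaks). The Afp peak was at 1.30, and the Gc peaks in introns 1 and 3 were at 1.71 and 1.52. The lowest and the highest ratio belonged to weak peaks, of signal 17.7 over Ankrd17 and 26.0 at the start of Rassf6. Each had a partner outside the strongest 74283 of a replicate, and the genome-wide spread leaves such peaks out.

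**Figure D3:**
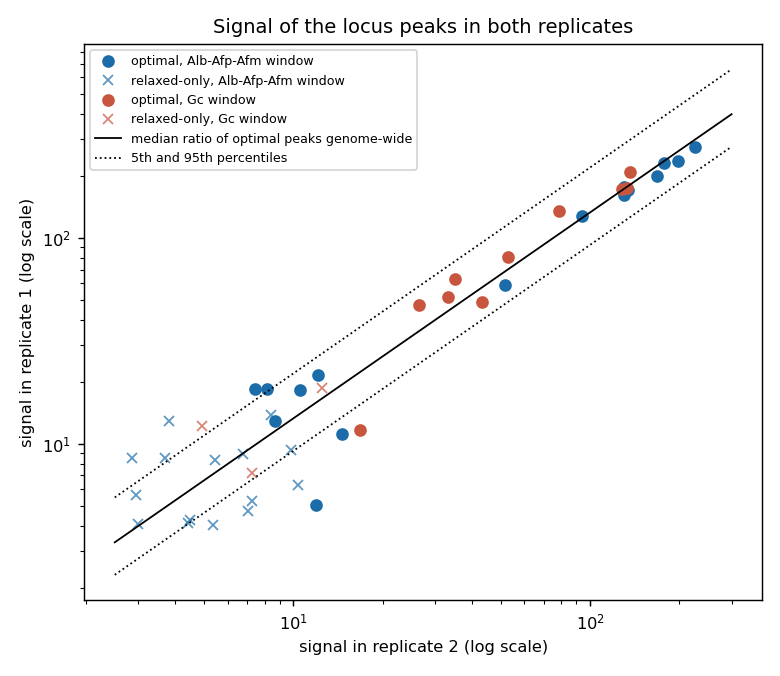
Signal of each locus peak in the replicate 1 list (vertical) against the replicate 2 list (horizontal), both on log scales, for optimal peaks (dots) and relaxed-only peaks (crosses) of both windows that had a summit within 100 bp in both lists. Solid and dotted lines mark the genome-wide median ratio of 1.33 and the 5th and 95th percentiles, 0.922 and 2.19, and most dots lie between the dotted lines.

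A CTCF motif was found within 50 bp of 22 of the 28 summits (78.6%, exact 95% interval 59.0 to 91.7), against 68.8% of optimal peaks outside chromosome 1. At the stricter score, met by 0.1% of random windows, 3 of the 28 had it, against 31.2%, and these were the Afp peak, the peak between 5830473C10Rik and Rassf6 and the peak past Rassf6. In the Alb to Afm window 8 motifs were on the plus and 6 on the minus strand, and around the 3 genes the order from low to high coordinates was minus at the lower flank, minus in Afp and minus at the upper flank. In the Gc window 5 were on the plus and 3 on the minus strand, and from the flank beyond the end of Gc to the flank before its start the order was plus, plus, plus and minus. The flanking motifs of Gc thus pointed towards each other, with plus below and minus above. Those of the 3 genes did not, but this rests on the lower flank, whose signal of 34.7 was low and whose motif score of 11.7 was close to the threshold of 11.04. Among optimal peaks at or above the median signal, the lower flank was the peak at 90405278 to 90405525, with a signal of 303 and a motif score of 14.1 on the plus strand, and the flanking motifs then pointed towards each other here too. Contacts between sites were not measured.

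Motifs without a peak were also counted. Over the Alb to Afm span there were 6 sequence matches at the 1% score, 3 in Afp and 3 in Afm, and 1 of them had an optimal summit within 50 bp, against 18.1% of 20985 matches on chromosome 5. Alb had no match. At the 0.1% score the span had 1 match, the Afp site, and it had a peak, as did 67.6% of 2672 such matches on chromosome 5. Gc had 4 matches at the 1% score, of which 2 had an optimal summit.

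Of the 22 motifs, 5 lay wholly in repeats that the reference masks, against 25.2% of all optimal peaks with a motif, and the same 5 held the letters AGAAGAGGG. These letters were chosen after the sequences were seen and were searched on both strands within 50 bp of the summit. They were in 13.7% of all optimal peaks and 19.4% of those with a motif, so the 5 of 22 were near the background. The Gc intron 3 site above is one of them. The other 4 are shown because they share these middle bases at separate places in Ankrd17 and Slc4a4.
Ankrd17, exon of a noncoding transcript (chr5:90262440-90262488, plus strand): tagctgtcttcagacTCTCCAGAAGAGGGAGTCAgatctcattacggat
Ankrd17, intron on the lower side (chr5:90281516-90281564, plus strand): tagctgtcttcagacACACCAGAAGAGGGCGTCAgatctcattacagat
Ankrd17, intron on the upper side (chr5:90286734-90286782, minus strand): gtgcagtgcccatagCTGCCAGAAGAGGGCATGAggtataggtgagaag
Slc4a4 (chr5:89228120-89228168, minus strand): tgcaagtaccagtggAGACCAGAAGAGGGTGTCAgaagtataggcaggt
Their signals differed widely, at 17.7, 22.2 and 222 for the sites in Ankrd17 in the order shown, 74.6 in Slc4a4 and 135 in Gc intron 3.

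Below the optimal list, the relaxed list of both replicates together held 66 peaks in the windows with no optimal summit within 300 bp, 49 near Alb, Afp and Afm and 17 near Gc. Genome-wide, 74.9% of relaxed peaks had none. Their signals ran from 5.03 to 29.8 with a median of 6.96, so all were weaker than the lower flank of Alb. Of the 66, 18 (27.3%) had a summit in both replicate lists, against 22.2% genome-wide, and 14 had one in neither, against 18.5% genome-wide. A motif was found in 10, against 14.7% of relaxed-only peaks outside chromosome 1. The strongest 3 of the Alb to Afm window were at 90394601, 90366665 and 90393984, with 23.6, 18.7 and 17.8, and those of the Gc window at 89248470, 89226836 and 89526547, with 29.8, 17.7 and 13.8. In the conservative list were 3 of the 66, against 6185 of 224741 genome-wide, so these had passed IDR there. They were the strongest of each window, at 90394601 and 89248470, and a peak at 90310344 with 16.9.

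In the relaxed list of both replicates together, the Alb to Afm span held 5 peaks or 54.0 per Mb and the body of Gc 3 or 74.3 per Mb, optimal sites included, against 113 per Mb over all chromosomes. Alb had none in the relaxed list of both replicates, and the replicate 2 list alone held 1 in its body, with a signal of 2.99 at 6074 bp from the start. Afp had 2 besides the intron 7 peak, at 90494618 with 8.85 and at 90496320 with 5.97, and neither had a summit within 100 bp in replicate 1. Afm had 1 in its body, at 90528721, with 11.2 in the list of both together, 4.01 in replicate 1 and 5.35 in replicate 2. Between Afp and Afm a peak at 90512484, 6448 bp before the start of Afm, had 16.9 in the list of both together, 12.9 in replicate 1 and 3.80 in replicate 2. Inside Gc there was 1 besides the 2 optimal sites, at 89441532 with 5.54, with no summit within 100 bp in either replicate list. The replicate 1 list held 3 peaks in the body of Gc and the replicate 2 list 6. Another peak 149 bp before the start of Gc had 5.96 in the list of both together and 4.26 in replicate 1, with no summit in replicate 2.

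Set by distance from the start of transcription (TSS), the members differed from one another. The nearest optimal summit was 2174 bp from a coding TSS at Gc, 10199 bp at Afp, 17994 bp at Afm and 27276 bp at Alb, against a median of 2207.5 bp over all coding genes. Gc was therefore close to the median, while 29.2% of coding genes were as far as Afp or farther, 21.5% as far as Afm and 16.5% as far as Alb. Within 10 kb of a TSS, 1 of the 4 members had an optimal summit, against 69.7% of coding genes, and Afp missed that limit by a short way. Inside the gene body, 2 of 4 had one, against 58.9%. Among coding genes within 2 times the length of each member the share was 58.8% for Alb, 62.5% for Afp, 74.4% for Afm and 76.7% for Gc. Alb and Afm had no summit in the body or within 10 kb of it, which was so for 21.5% of coding genes.

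Of 6 coding neighbours in the windows, 4 had a summit closer to their start than 10 kb, against 69.7% of coding genes. It was 54 bp from Rassf6 with a signal of 26.0, 642 bp from Ankrd17 with 24.9, 1661 bp from the predicted gene Gm9958 with that same peak, and 2235 bp from Slc4a4 with 166. The Slc4a4 start and this last peak, with its summit at 88889534, lie below the Gc window, which only the far end of that gene reaches. Npffr2 was 16239 bp from its nearest summit and 5830473C10Rik 27915 bp, both farther than the median gene.

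None of the promoters of the members held a CTCF motif at the 1% score, and 8.89% of 32851 promoters did, so that a count of 0 of 4 does not set the members apart (RefSeq, GRCm38.p6, 250 bases before to 50 after the start, all 4 members matched). Their GC content was 40.0% in the Alb and Afp promoters, 33.0% in Afm and 40.3% in Gc, against a median of 52.7% over all promoters.

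Other genes of the plasma were set beside the family. Of 25 genes of proteins that liver secretes into plasma, 14 (56%) had an optimal summit within 10 kb of a TSS, against 69.7% of coding genes, with a median distance of 5302 bp and a range of 58 to 114465 bp. Apob, the main protein of low density lipoprotein, had a summit at 955 bp with a signal of 437, and Itih1, an inhibitor heavy chain of plasma, at 770 bp with 344. Apoh, which binds phospholipids, had one at 240 bp with 39.2. The farthest were the antiprotease gene Serpina1a at 114465 bp, the antithrombin gene Serpinc1 at 42890 bp and Fetub, a fetuin, at 31543 bp. Alb, at 27276 bp, was thus within the range of this list.

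All 13 genes of transcription factors known to act on the albumin locus in liver had a summit within 10 kb, with a median of 382 bp. Over all coding genes the share was 69.7% and the median 2207.5 bp. Cebpa had one at 51 bp with a signal of 339, Foxa1 at 998 bp with 238 and Foxa3 at 126 bp with 171. Of 4 receptor genes for albumin and the vitamin D binding protein, 3 had a summit within 10 kb, against the same 69.7% of coding genes. It was 96 bp from Lrp2, the gene of megalin, with a signal of 37.1. For Fcgrt, the gene of the neonatal Fc receptor that recycles albumin, it was at 590 bp with 18.1. For Amn it was at 1523 bp with 374, while Cubn, the gene of cubilin, was at 45166 bp with 131.

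**Figure D4:**
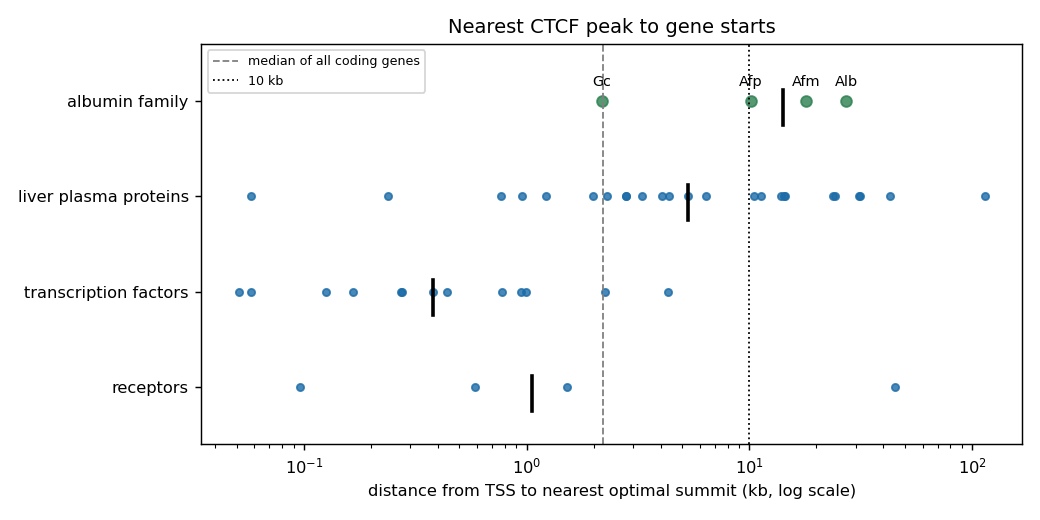
Distance from a coding TSS to the nearest optimal summit (kb, log scale) for the 4 members (green) and for 25 plasma protein, 13 transcription factor and 4 receptor genes (blue), with black bars for each list's median. The dashed line is the median of all coding genes, 2207.5 bp, and Afp, Afm and Alb lie to the right of the dotted line at 10 kb.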

How the data were processed

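The authors deposited 5 narrowPeak lists in mm10, namely optimal and conservative lists after IDR and relaxed lists of each replicate and of the pair pooled. Per the labels' descriptions, relaxed peaks came from alignments set against a control alignment. The aligner, caller and IDR settings were not given in the sources used here. Signal deposited with a peak comes from the authors and is not scaled between lists. It was compared by rank or value within a list. Values of the optimal list and of the relaxed list of the pair pooled were also compared, as their highest signals were equal in each window (496 and 341). For want of scaling between the replicate lists, the ratio of replicate signals is read only against its genome-wide spread. The deposited −log10 q-value was read but used for no choice, and the summit was the peak start plus the deposited offset. Read numbers were not used here, so depth behind a peak is unknown.

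Only peaks of the 19 autosomes and of X and Y entered, which were 74283 of 74293 in the optimal list. Genes came from GENCODE M21, with TSS of protein-coding transcripts, and sequence from RefSeq GRCm38.p6, the same assembly. The members, windows and gene lists were chosen with earlier results of these data known. Named were the members, coding genes of both windows, flanking summits, the 3 strongest optimal and relaxed-only peaks of each window, and up to 3 list genes nearest by signal within 1 kb and 3 farthest; other peaks are named where chosen after their values were seen. A few list genes named by it are left out of the text. The flanking distance was the planned measure, and the longest stretch without a summit was added after seeing that peaks lay inside.

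A CTCF matrix, 19 positions long, came from aligning 991 of the 1000 optimal peaks of highest signal on chromosome 1, with a score met by 1% of random windows of 50 bp on either side as threshold. The search steps were tested on simulated data. Intervals are exact Clopper-Pearson 95% intervals. Alternatives covered the peak list, signal, widths, distances, motif threshold and each replicate alone. Python 3.11.15, numpy 2.4.6, pandas 2.3.3, scipy 1.17.1, pysam 0.24.0 and matplotlib 3.10.9 were used.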

Additional observations from a re-analysis of the deposited data

How the results depend on the processing

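No paired analysis was possible because there was 1 group and no test. The causes of the moves below were not tested. At or above the median signal the Alb to Afm window held 9 peaks in place of 18, and the distance between its flanks was 183738 bp in place of 155511. With 500 kb beside, the counts were 42 for that window and 23 for Gc. The optimal list was not remade without a replicate. Leaving out 1 replicate meant that the strongest 74283 peaks of the other replicate's relaxed list took its place. This gave 15 to 18 peaks near Alb, Afp and Afm, and 10 to 11 near Gc. The distance between the flanks was 140979 to 155493 bp for the 3 genes and 88677 to 88680 bp for Gc. Longest stretches were 67316 to 88200 bp and 44674 to 44675 bp, and a motif was found in 71.4 to 84.6%. For relaxed-only peaks, the other replicate's whole relaxed list was set against the optimal list of both, which gave 65 to 74. Without replicate 2, the peaks at 90512484 and 90574572 were among the strongest 74283 of replicate 1, so the stretch across Alb, 67316 bp, became the longest. Over all relaxed peaks of each replicate, 92.9% of the 28 were in both. At the 0.1% score, 10.7% had a motif. Within 100 bp either side of the summit, at the score met by 1% of random windows of that width, 64.3% had one. Members within the distance of a TSS were 0 at 1 kb, 3 at 20 kb, 4 at 50 kb, 2 with every annotated transcript (Afp added), and 1 to 2 without a replicate (Afm added without replicate 2). Members with no summit in the body or nearby were 1 at 20 kb and 1 to 2 without a replicate. Shares of all coding genes were not computed at these other settings, so these counts have no background to be read against. The limits are that 2 libraries of 1 tissue sample give no biological spread, that bulk stomach mixes cell types, and that an absent peak shows only that none was listed.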
